A study of Homo sapiens with 6 samples.

Results

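The genes described here take part in the response to drugs given for acute lymphoblastic leukemia. They act in drug uptake, activation, retention or inactivation, or in the glucocorticoid response. They are 9 genes, chosen for their known roles but with earlier results of these data known, out of 57905 genes in the deposited count table. NR3C1, TSC22D3 and FKBP5 belong to the glucocorticoid response, FPGS, GGH and SLC19A1 to the handling of antifolates, and TPMT, NT5C2 and DCK to the handling of thiopurines and nucleoside analogues. NALM6, a line of human leukemic B-cell precursors from acute lymphoblastic leukemia, was treated for 24 h either with 500 nM of THZ1, a covalent inhibitor of the kinase CDK7, or with the solvent DMSO. CDK7 acts in the cell cycle and in the start of transcription by RNA polymerase II. No glucocorticoid, antifolate or thiopurine is named in the labels of these cells, so the values are levels of the drug response genes and not responses to those drugs. There were 3 RNA-SEQ libraries of each treatment, and nothing in the labels says that they came from separate cultures, so p-values measure the spread between these libraries.

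Glucocorticoids such as prednisolone and dexamethasone enter the cell by diffusion and bind the glucocorticoid receptor, which is held ready by the HSP90 chaperone machinery and then moves to the nucleus to switch genes on and off. Methotrexate, the antifolate of leukemia therapy, enters mainly through the reduced folate carrier, is retained by the addition of glutamates and blocks enzymes that need folate. The thiopurines mercaptopurine and thioguanine are turned into nucleotides by the purine salvage pathway, and methylation and dephosphorylation compete with that activation.

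DMSO-treated libraries held 11015480 to 11164840 counts and THZ1-treated libraries 7876402 to 8314306, so that every DMSO-treated library was deeper. CPM values, which are counts relative to library size, are given after TMM scaling, a method that takes most genes as unchanged, and no spike-in was named to set an absolute scale. In such bulk libraries, fewer cells expressing a gene and less of its RNA per cell cannot be told apart. A floor of 3 counts corresponded to 0.246 to 0.415 CPM across the 6 libraries and covers counting error only. The B-cell identity of the cells was visible, with all 12 markers of B-cell precursors above the floor in both treatments. Their summed level was 4133 to 4269 CPM with DMSO and 2192 to 2257 CPM with THZ1. Of 10 markers of other blood cells, stroma and epithelium, 6 were at or under the floor in each treatment, including the T-cell genes CD3D, CD3E and CD2, and the summed level of the 10 was 7.70 to 8.85 CPM with DMSO and 26.2 to 28.2 CPM with THZ1. CD14 and COL1A1 made up most of that difference, with log2 fold changes of 3.75 and 2.08, and their part in the results was not tested.

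All 9 genes passed the filter on low counts and differed between treatments. Calls were made at an adjusted p-value below 0.05 in edgeR's quasi-likelihood test, with p-values adjusted over the 16622 genes tested after Benjamini-Hochberg. TSC22D3 was the 1 gene that rose, whereas the other 8 genes fell. Of all genes tested, 43.5% were called higher and 41.1% lower, so a call in either direction was common. With a further limit of 1.5 on the size of the log2 fold change, TSC22D3 was higher, where 24.6% of all genes were, and FKBP5 and NT5C2 were lower, where 12.9% of all genes were. The libraries of both treatments did not overlap in CPM for any of the 9 genes, as for 84.7% of all genes tested. The median log2 fold change of the 9 genes was −1.07, beside 0.03 over all genes tested. The plot of CPM by library shows these levels for each gene.

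**Figure D1:**
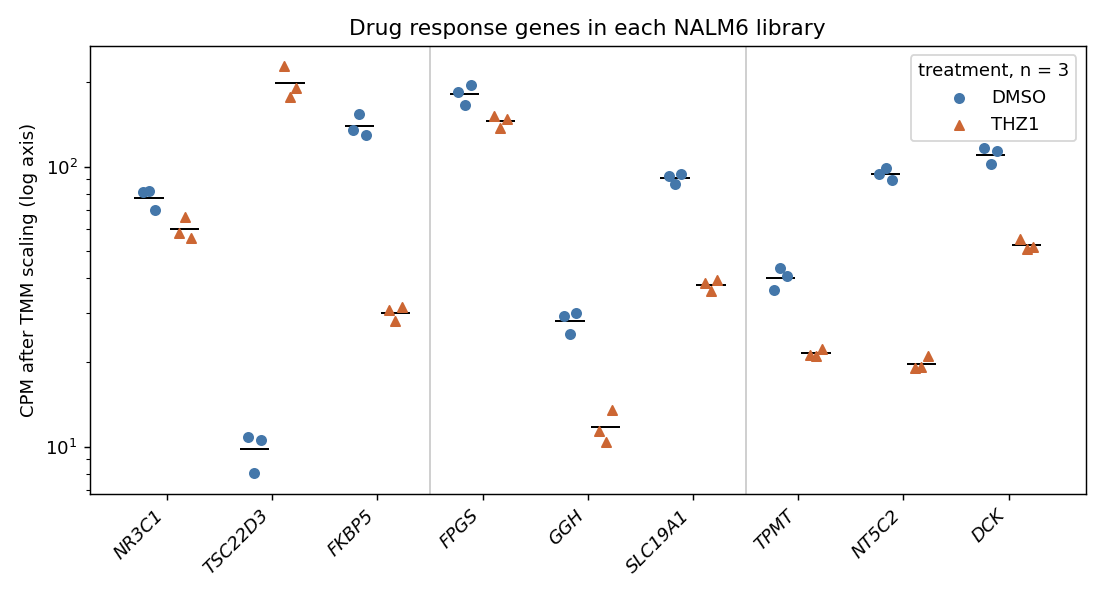
CPM after TMM scaling on a log axis for each of the 9 genes, with 3 DMSO-treated libraries as circles, 3 THZ1-treated libraries as triangles and the mean of each treatment as a short line. Vertical lines separate the glucocorticoid, antifolate and thiopurine or nucleoside analogue genes. TSC22D3 lies between 8.03 and 10.8 CPM with DMSO and between 177 and 228 CPM with THZ1, and for the other genes every THZ1-treated library lies below every DMSO-treated library.

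NR3C1 encodes the glucocorticoid receptor itself and lies on the minus strand of chromosome 5 from 142657496 to 142815077 (GRCh37, as are the other gene positions). It had 80.9, 81.5 and 69.7 CPM in the DMSO-treated libraries and 58.1, 65.9 and 55.7 CPM in the THZ1-treated libraries. The treatments came close to each other, since the lowest DMSO-treated library lay only slightly above the highest THZ1-treated one. The mean was 77.4 ± 6.64 (DMSO) and 59.9 ± 5.31 CPM (THZ1) (SD, n = 3 libraries each), a log2 fold change of −0.37 with a standard error of 0.09 and an adjusted p-value of 0.00027 by edgeR's quasi-likelihood test. This call depended on the scaling. With upper quartile factors the log2 fold change was −0.18 and the adjusted p-value 0.0606, whereas with library sizes alone the log2 fold change was −0.62.

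TSC22D3 encodes GILZ, the glucocorticoid-induced leucine zipper protein, and is one of the best known genes switched on by the receptor in lymphoid cells. It lies on the minus strand of chromosome X from 106956451 to 107020572. The gene had 131, 98 and 126 counts in the DMSO-treated libraries and 1737, 1276 and 1418 counts in the shallower THZ1-treated libraries, which is 10.8, 8.03 and 10.6 CPM against 228, 177 and 190 CPM. All THZ1-treated libraries were far above all DMSO-treated ones, and the spread within a treatment was small beside the difference. The mean rose 20.2-fold, from 9.83 ± 1.56 to 198 ± 26.9 CPM (SD, n = 3 libraries each). On the log2 scale the change was 4.33, with a 95% interval from 4.12 to 4.55 and an adjusted p-value of 1.4e-25 by edgeR's quasi-likelihood test. Among all genes tested this change stood at percentile 91.4.

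FKBP5 encodes FKBP51, a co-chaperone of HSP90 that lowers the affinity of the receptor for hormone and that is itself a classic target gene of the receptor. It lies on the minus strand of chromosome 6 from 35541362 to 35696360. The gene had 1627, 1875 and 1536 counts with DMSO and 234, 203 and 235 counts with THZ1, or 135, 154 and 130 CPM against 30.8, 28.1 and 31.4 CPM. Both treatments were tight, and no library lay between them. FKBP5 fell 4.62-fold, from 139 ± 12.7 to 30.1 ± 1.76 CPM (SD, n = 3 libraries each), a change of −2.21 ± 0.09 on the log2 scale (standard error) with an adjusted p-value of 1.9e-20 by edgeR's quasi-likelihood test. Its change stood at percentile 5.08 of all genes tested. The best known pair of receptor target genes in this set therefore moved in opposite directions.

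Promoter sequences of TSC22D3 and FKBP5 are shown because these target genes of the same receptor changed in opposite directions. Those of FKBP5 were chosen after its values were seen. Each window is taken from RefSeq, runs from 250 bases before to 50 bases after an annotated start and is written 5′ to 3′ along the minus strand, which is the strand of both genes. Coordinates are those of GRCh38.p14, and each window also matched GRCh37 at exactly 1 place on its chromosome, which allows it to be set on the gene positions above. RefSeq has 4 windows for TSC22D3, of which the most upstream and the most downstream are shown, and 2 windows for FKBP5. Capitals mark the E-box CACGTG, which reads the same on both strands, or 6 bases of the glucocorticoid response element, AGAACA on one strand and TGTTCT on the other. Each window shown holds at most 1 match, so no matches overlap.
TSC22D3 upstream window, chrX:107775939-107776238 (GRCh37 chrX:107019169-107019468): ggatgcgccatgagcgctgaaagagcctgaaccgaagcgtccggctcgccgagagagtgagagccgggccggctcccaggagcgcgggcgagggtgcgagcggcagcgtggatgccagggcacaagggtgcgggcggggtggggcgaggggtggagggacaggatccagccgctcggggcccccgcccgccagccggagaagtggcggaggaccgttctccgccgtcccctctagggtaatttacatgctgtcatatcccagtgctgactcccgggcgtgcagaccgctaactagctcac
TSC22D3 downstream window, chrX:107716459-107716758 (GRCh37 chrX:106959689-106959988): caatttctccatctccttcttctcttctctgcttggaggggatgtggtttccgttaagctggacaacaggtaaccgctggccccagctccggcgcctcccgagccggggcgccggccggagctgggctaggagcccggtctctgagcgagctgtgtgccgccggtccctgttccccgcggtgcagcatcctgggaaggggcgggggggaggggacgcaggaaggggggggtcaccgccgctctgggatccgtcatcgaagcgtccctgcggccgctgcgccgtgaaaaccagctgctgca
FKBP5 upstream window, chr6:35728534-35728833 (GRCh37 chr6:35696311-35696610): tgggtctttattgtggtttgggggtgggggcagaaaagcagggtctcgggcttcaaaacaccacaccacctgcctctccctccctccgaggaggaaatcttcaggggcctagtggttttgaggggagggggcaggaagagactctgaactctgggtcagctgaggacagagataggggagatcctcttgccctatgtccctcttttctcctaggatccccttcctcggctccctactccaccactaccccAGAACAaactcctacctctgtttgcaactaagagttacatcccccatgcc
FKBP5 downstream window, chr6:35688866-35689165 (GRCh37 chr6:35656643-35656942): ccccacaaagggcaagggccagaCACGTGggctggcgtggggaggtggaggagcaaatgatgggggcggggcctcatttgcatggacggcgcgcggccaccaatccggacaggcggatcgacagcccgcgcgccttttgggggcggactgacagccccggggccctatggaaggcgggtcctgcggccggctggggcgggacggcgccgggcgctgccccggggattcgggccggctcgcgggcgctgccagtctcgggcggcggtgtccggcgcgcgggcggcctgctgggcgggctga

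None of the 4 windows of TSC22D3 held either motif. The upstream window of FKBP5 held AGAACA, starting at base 251 of the window, and its downstream window held the E-box, starting at base 24. Windows were matched for 8 of the 9 genes, 26 windows in all. The E-box stood in 4 of the 26 windows (15.4%), beside 7.26% of 35116 promoter windows of the same length, and AGAACA or TGTTCT stood in 4 windows (15.4%), beside 14.8%. The 4 windows with the E-box had a GC content of 74.0 to 76.3%, beside a median of 58.7% over all promoter windows. Some of the 26 windows also overlap each other, and whether the shares differ was not tested. The motifs are matches of letters in short windows and no measurements of binding. Receptor sites outside these windows were not searched.

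The receptor works within a chaperone complex, and 14 genes of that complex were tested beside it. Of these, 10 were lower, 1 was higher and 3 did not pass the test, with a median log2 fold change of −0.48. Over all genes tested, 41.1% were lower and 43.5% higher, the shares to set beside this list and those below. The lowest gene of the chaperone list was FKBP4, which encodes FKBP52, the co-chaperone that opposes FKBP51. It had 77, 59 and 66 counts with DMSO and 7, 7 and 5 counts with THZ1, a change of −2.70 ± 0.32 on the log2 scale (standard error). Thus both FKBP co-chaperones of the receptor were lower. The highest was DNAJB1, an HSP40 protein, at a log2 fold change of 0.34, which lost its call with library sizes alone (0.10). HSP90 was split between its genes, both chosen for mention after their values were seen. HSP90AA1, the inducible form, fell from 2335 ± 61.7 to 902 ± 30.7 CPM, whereas HSP90AB1, the constitutive form, had 2575 ± 108 (DMSO) and 2736 ± 33.9 CPM (THZ1) and did not pass the test (log2 fold change 0.09, 95% interval −0.04 to 0.22). Over the alternatives HSP90AB1 lay between −0.54 and 0.28, without a stable direction.

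Of 12 coactivators and corepressors of nuclear receptors, 4 were higher and 5 were lower, with a median log2 fold change of −0.02. NCOR1, a corepressor, was highest and rose from 69.3 ± 6.87 to 137 ± 4.43 CPM (log2 fold change 0.98). SMARCA4, the ATPase of the SWI/SNF complex, was lowest and fell from 484 ± 12 to 173 ± 2.19 CPM (log2 fold change −1.48). Among 5 genes of steroid metabolism, transport and binding, HSD11B1, which regenerates cortisol, and ABCB1, the multidrug efflux pump, had 0 counts in all 6 libraries. SERPINA6, the corticosteroid-binding globulin, had at most 1 count in any library. HSD11B2, which inactivates cortisol, had 2, 0 and 1 counts with DMSO and 4, 5 and 10 counts with THZ1 and was not tested. NR3C2, the mineralocorticoid receptor, had 2.55 ± 0.346 (DMSO) and 2.55 ± 0.514 CPM (THZ1), with a log2 fold change of 0.01 and a 95% interval from −0.57 to 0.58.

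A list of 15 other genes that glucocorticoids are known to induce in lymphoid or other cells had 13 genes tested. Of these, 9 were higher, 1 was lower and 3 did not pass the test, with a median log2 fold change of 1.11. SOCS1, an inhibitor of cytokine signaling, was highest, with 20, 16 and 6 counts with DMSO and 453, 554 and 566 counts with THZ1, a change of 5.91 ± 0.18 on the log2 scale (standard error). The following genes of this list were singled out after their values were seen. SGK1, a serum- and glucocorticoid-regulated kinase, rose from 7, 10 and 4 counts to 254, 260 and 273 counts. BTG2, an antiproliferative gene that p53 also induces, rose from 43.6 ± 1.12 to 706 ± 5.27 CPM. The 1 lower gene was DUSP1, a phosphatase of MAP kinases, at a log2 fold change of −0.20, which was −0.01 with upper quartile factors and then not called. ERRFI1, a feedback inhibitor of the EGF receptor, had the lowest value, at −0.56 with an adjusted p-value of 0.103 by edgeR's quasi-likelihood test. BCL2L11, which encodes the apoptosis activator BIM, had 49.0 ± 1.59 (DMSO) and 45.7 ± 3.80 CPM (THZ1) and was not called. Many genes of this list answer to other signals too, and with 43.5% of all genes called higher, the count describes these genes alone. TXNIP could not be matched to the count table by its identifier.

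SLC19A1 encodes the reduced folate carrier, through which methotrexate enters the cell, and lies on the minus strand of chromosome 21 from 46913486 to 46993279. It had 92.4, 86.7 and 93.7 CPM in the DMSO-treated libraries and 38.4, 36.0 and 39.3 CPM in the THZ1-treated libraries. The 3 libraries of each treatment lay close together and well apart from the others. The mean fell 2.40-fold, from 90.9 ± 3.71 to 37.9 ± 1.71 CPM (SD, n = 3 libraries each), a change of −1.26 ± 0.08 on the log2 scale (standard error) with an adjusted p-value of 7.4e-15 by edgeR's quasi-likelihood test. Exons of SLC19A1 share 1563 bases with exons of COL18A1 on the opposite strand. The strand setting of the counting is not given in the sources used here. COL18A1 had 116 to 145 counts with DMSO and 39 to 61 counts with THZ1. SLC19A1 had 1058 to 1118 and 260 to 294 counts. Reads of SLC19A1 and COL18A1 may be mixed or left out if strand was not used, which was not tested.

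FPGS encodes folylpolyglutamate synthase, which adds glutamates to folates and methotrexate and so keeps them in the cell, and lies on the plus strand of chromosome 9 from 130556876 to 130576606. It had 185, 166 and 196 CPM with DMSO and 151, 137 and 148 CPM with THZ1. All THZ1-treated libraries were lower, though the gap between the treatments was small. The mean was 182 ± 15.5 (DMSO) and 145 ± 7.26 CPM (THZ1) (SD, n = 3 libraries each), a change of −0.33 ± 0.07 on the log2 scale (standard error) with an adjusted p-value of 0.00016 by edgeR's quasi-likelihood test. As for NR3C1, the call was lost with upper quartile factors, where the log2 fold change was −0.13 and the adjusted p-value 0.0926, and with library sizes alone the log2 fold change was −0.57.

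GGH encodes gamma-glutamyl hydrolase, the lysosomal enzyme that removes these glutamates again, and lies on the minus strand of chromosome 8 from 63927440 to 63951966. It had 353, 309 and 356 counts with DMSO and 87, 75 and 101 counts with THZ1, or 29.2, 25.3 and 30.0 CPM against 11.4, 10.4 and 13.5 CPM. The treatments were clearly apart, and GGH had the fewest counts of the 9 genes after THZ1. It fell 2.39-fold, from 28.2 ± 2.51 to 11.8 ± 1.59 CPM (SD, n = 3 libraries each), with a log2 fold change of −1.26, a standard error of 0.13 and an adjusted p-value of 2.2e-10 by edgeR's quasi-likelihood test. The carrier and the hydrolase thus had the same log2 fold change to 2 decimals, and the change of the synthase was smaller.

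Enzymes that antifolates block were lower as well. TYMS, thymidylate synthase, fell by 1.25 on the log2 scale, from 421 ± 27.6 to 176 ± 3.63 CPM. GART and ATIC, which carry out the folate-dependent steps of purine synthesis, had log2 fold changes of −1.18 and −1.69. These 3 genes passed edgeR's quasi-likelihood test, with the highest adjusted p-value at 1.9e-15. TYMS shares 967 exon bases with ENOSF1 on the opposite strand, so its value includes that uncertainty.

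Of 10 other folate carriers and drug efflux pumps, 7 were tested, of which 5 were lower and 0 were higher at an adjusted p-value below 0.05, with a median log2 fold change of −0.89. By DESeq2, and by edgeR at an unadjusted p-value below 0.05, 0 of them were higher either. ABCG2, the breast cancer resistance protein that also exports methotrexate, was lowest, with 130, 126 and 108 counts with DMSO and 11, 8 and 8 counts with THZ1, a change of −3.04 ± 0.25 on the log2 scale (standard error). ABCC1, a multidrug efflux pump, had 108 ± 7.36 (DMSO) and 108 ± 2.41 CPM (THZ1), a log2 fold change of −0.01 with a 95% interval from −0.16 to 0.14. With upper quartile factors ABCC1 was called higher at 0.18 and with library sizes alone lower at −0.26. SLC46A1, the proton-coupled folate carrier, had the highest value, 0.35 with a standard error of 0.29, and did not pass the test. The enzymes of the folate cycle were mostly lower, 8 of the 10 tested, with 2 higher and a median log2 fold change of −0.92. MTHFD1, a cytosolic enzyme with 3 folate activities, was lowest and fell from 2082, 2259 and 2202 counts to 124, 141 and 135 counts, a log2 fold change of −3.33. MTHFS, which returns folinic acid to the folate pool, was highest and rose from 3, 3 and 9 counts to 55, 75 and 76 counts, a log2 fold change of 4.44 that rests on very low counts with DMSO. Its exons share 555 bases with the readthrough gene ST20-MTHFS on the same strand, so reads may have been lost or shared there.

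TPMT encodes thiopurine methyltransferase, which inactivates thiopurines by methylation, and lies on the minus strand of chromosome 6 from 18128542 to 18155308. It had 36.1, 43.3 and 40.8 CPM with DMSO and 21.3, 21.0 and 22.3 CPM with THZ1. The THZ1-treated libraries were nearly alike and all below the DMSO-treated ones. The mean fell 1.86-fold, from 40.1 ± 3.63 to 21.6 ± 0.679 CPM (SD, n = 3 libraries each), a change of −0.89 ± 0.11 on the log2 scale (standard error) with an adjusted p-value of 4.0e-09 by edgeR's quasi-likelihood test. TPMT has a processed copy elsewhere in the genome, and how reads that fit both were counted is not given in the sources used here.

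NT5C2 encodes a cytosolic 5′ nucleotidase that removes the phosphate from inosine and guanosine monophosphate and from the thiopurine nucleotides, and activating mutations of it are known from relapsed leukemia. It lies on the minus strand of chromosome 10 from 104846942 to 105037362. The gene had 1140, 1203 and 1064 counts with DMSO and 145, 139 and 157 counts with THZ1, or 94.3, 98.6 and 89.8 CPM against 19.1, 19.2 and 21.0 CPM. Every THZ1-treated library was far below every DMSO-treated library, and this was the largest fall among the 9 genes on the log2 scale, although it differed from that of FKBP5 by less than the standard error of either. The mean fell 4.76-fold, from 94.2 ± 4.40 to 19.8 ± 1.06 CPM (SD, n = 3 libraries each), with a log2 fold change of −2.25, a 95% interval from −2.44 to −2.07 and an adjusted p-value of 3.8e-20 by edgeR's quasi-likelihood test. Exons of NT5C2 share 2724 bases with CNNM2 and 452 bases with INA, both on the opposite strand. CNNM2 had 802 to 843 counts with DMSO and 186 to 210 counts with THZ1. Reads of NT5C2 and CNNM2 may be mixed or left out if strand was not used in the counting.

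As the gene with the largest fall, NT5C2 is shown with 2 of its 3 RefSeq promoter windows in GRCh38.p14, the most upstream and the most downstream. Both are written 5′ to 3′ along the minus strand, with TGTTCT in capitals.
NT5C2 upstream window, chr10:103193223-103193522 (GRCh37 chr10:104952980-104953279): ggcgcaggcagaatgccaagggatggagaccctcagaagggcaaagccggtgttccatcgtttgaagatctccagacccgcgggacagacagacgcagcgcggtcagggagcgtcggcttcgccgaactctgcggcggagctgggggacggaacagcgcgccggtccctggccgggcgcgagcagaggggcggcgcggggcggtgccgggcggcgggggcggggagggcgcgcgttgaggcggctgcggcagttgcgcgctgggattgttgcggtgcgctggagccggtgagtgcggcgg
NT5C2 downstream window, chr10:103153772-103154071 (GRCh37 chr10:104913529-104913828): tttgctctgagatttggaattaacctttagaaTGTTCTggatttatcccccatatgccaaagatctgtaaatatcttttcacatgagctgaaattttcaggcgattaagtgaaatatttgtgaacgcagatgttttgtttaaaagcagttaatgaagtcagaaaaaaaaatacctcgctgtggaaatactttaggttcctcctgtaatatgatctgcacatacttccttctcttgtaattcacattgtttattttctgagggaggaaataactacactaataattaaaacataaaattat

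The upstream window of NT5C2 had a GC content of 73.0% and held neither motif. The downstream window had a GC content of 31.7% and held TGTTCT, starting at base 33 of the window. The median GC content over all promoter windows was 58.7%.

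DCK encodes deoxycytidine kinase, which activates nucleoside analogues such as cytarabine by adding the first phosphate, and lies on the plus strand of chromosome 4 from 71858255 to 71896631. It had 116, 102 and 114 CPM with DMSO and 55.0, 50.9 and 51.6 CPM with THZ1. No THZ1-treated library came near a DMSO-treated one. The mean fell 2.10-fold, from 110 ± 7.64 to 52.5 ± 2.16 CPM (SD, n = 3 libraries each), a change of −1.07 ± 0.08 on the log2 scale (standard error) with an adjusted p-value of 1.7e-13 by edgeR's quasi-likelihood test. DCK shares 199 exon bases with MOB1B on the same strand, which had a log2 fold change of 0.12.

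Thiopurines must be taken up and turned into nucleotides, and of 10 genes of these steps 8 were tested. Of these, 7 were lower, 6 of them by at least 1.5 on the log2 scale, and 0 were higher at an adjusted p-value below 0.05 by edgeR's quasi-likelihood test (0 also at an unadjusted p-value below 0.05 and by DESeq2). Of all genes tested, 12.9% were lower by at least 1.5. The median log2 fold change of the 8 genes was −1.84. The lowest was SLC29A1, the equilibrative nucleoside transporter ENT1, through which cytarabine also enters, which had 1502, 1491 and 1523 counts with DMSO and 68, 75 and 74 counts with THZ1, a change of −3.68 ± 0.10 on the log2 scale (standard error). HPRT1, which makes the first nucleotide of mercaptopurine and thioguanine, fell from 95.7 ± 7.11 to 24.2 ± 0.966 CPM (log2 fold change −1.98). IMPDH2, an enzyme of guanine nucleotide synthesis, had the highest value and did not pass the test (log2 fold change 0.04), though it was called higher with upper quartile factors (0.23) and lower with library sizes alone (−0.21).

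Other enzymes that inactivate thiopurines were measured beside TPMT. ITPA, which removes the thioinosine triphosphates, fell from 47.7 ± 5.86 to 27.8 ± 2.66 CPM (log2 fold change −0.78). PNP, a phosphorylase of purine nucleosides, had 200 ± 10.4 (DMSO) and 211 ± 4.16 CPM (THZ1) and was not called. Of this list, 4 genes were not tested, among them XDH, the xanthine oxidase, which had 0 counts in all 6 libraries.

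Of the other 5′ nucleotidases, 4 were tested, of which 3 were lower and 1 was higher. NT5C3B was lowest at a log2 fold change of −1.51, beside −2.25 for NT5C2, and NT5C, which acts on deoxynucleotides, was highest at 1.09. Among 9 kinases and other enzymes of nucleoside analogue metabolism that were tested, 7 were lower and 2 were higher, with a median log2 fold change of −1.31. SAMHD1, which hydrolyses deoxynucleotides and the active form of cytarabine, was lowest and fell from 156, 164 and 179 counts to 13, 18 and 19 counts, a log2 fold change of −2.62. TK2, the mitochondrial thymidine kinase, was highest and rose from 58, 61 and 50 counts to 208, 228 and 241 counts, a log2 fold change of 2.70. CDA, which inactivates cytarabine, had 0 counts in all 6 libraries. Mismatch repair, which recognises incorporated thioguanine, had 4 of 7 genes lower and 1 higher. PMS2 was highest at a log2 fold change of 0.71, although near-identical copies of PMS2 make its reads uncertain.

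Across the 14 lists of other drug genes, 101 of 123 genes were tested. Of these, 25 were higher, 59 were lower and 17 did not pass the test. By 1.5 or more on the log2 scale, 9 were higher and 21 lower. Of all genes tested, 43.5% were higher and 41.1% lower, and 24.6% and 12.9% were so by that size. The median log2 fold change of the 101 genes was −0.56, beside 0.03 over all genes tested. The plot of the pathway lists shows that most glucocorticoid-induced genes and the 3 other genes of the TSC22 family lay to the right of 0, and most folate and thiopurine genes to the left.

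**Figure D2:**
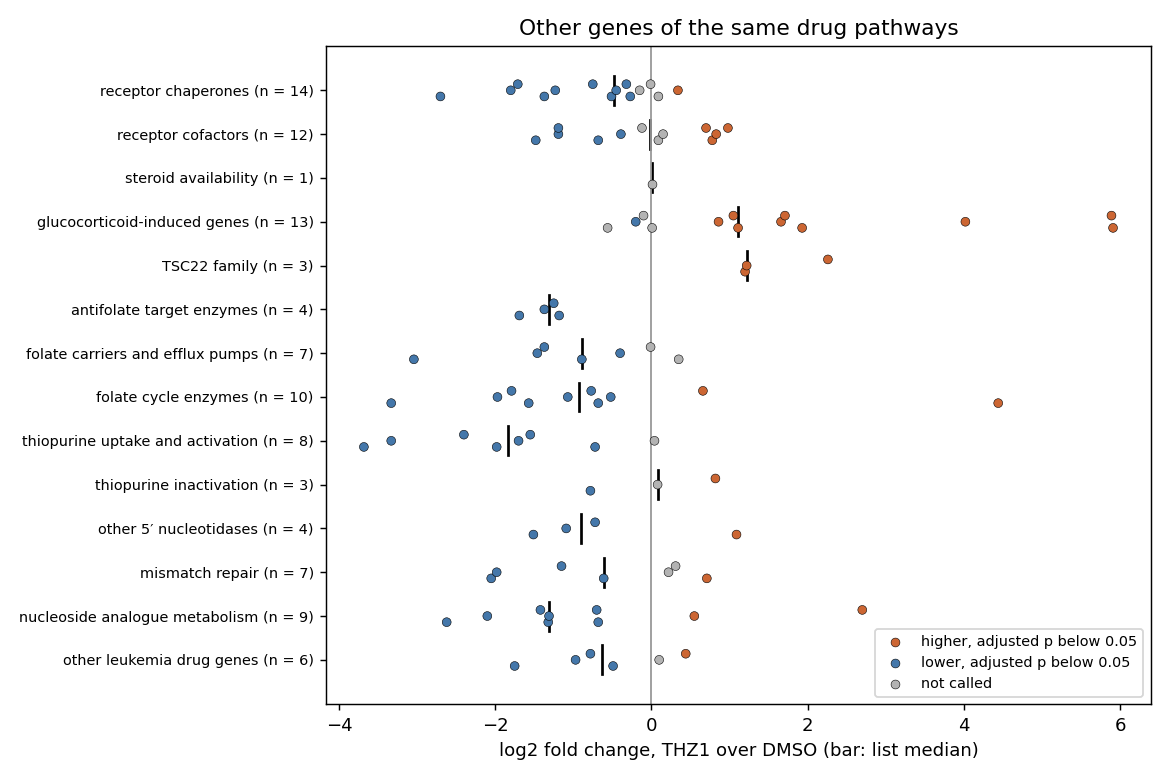
Log2 fold change of THZ1 over DMSO for each tested gene of 14 lists of other drug genes, by edgeR on 3 libraries of each treatment. Each point is a gene, colored by its call in that test, and a black bar is the median of its list. The median is 1.11 for the glucocorticoid-induced genes, −0.92 for the folate cycle enzymes and −1.84 for thiopurine uptake and activation.

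Ratios between genes within a library need no scaling factor and were computed for 6 pairs that act against or after each other. The ratio of FPGS to GGH reads, synthesis of polyglutamates against their removal, was 6.32, 6.53 and 6.52 with DMSO and 13.1, 13.1 and 10.9 with THZ1. On the log2 scale it rose by 0.93, from 2.69 ± 0.03 to 3.62 ± 0.15 (SD, n = 3). The ratio of SLC19A1 to ABCC1 reads, uptake against 1 of the efflux pumps, was 0.854, 0.750 and 0.928 with DMSO. It was 0.348, 0.338 and 0.372 with THZ1, a log2 difference of −1.25. The direction depends on the pump taken. Beside SLC19A1 at a log2 fold change of −1.26, ABCG2 (−3.04) fell more, and ABCC4 (−0.89) and ABCC5 (−0.40) fell less. ABCC2 (−1.37, standard error 0.41) had at most 12 counts per library with THZ1 and could not be ranked against SLC19A1. Without THZ1 replicate 1 its value was −0.84. THZ1-treated libraries thus held relatively more synthase reads beside the hydrolase and relatively fewer carrier reads beside ABCC1.

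In the glucocorticoid genes, the ratio of NR3C1 to FKBP5 reads was 0.602, 0.530 and 0.538 with DMSO and 1.89, 2.34 and 1.77 with THZ1, so the receptor went from fewer to more reads than its co-chaperone. Its log2 difference was 1.84. The ratio of TSC22D3 to NR3C1 reads changed most, from 0.134, 0.0990 and 0.153 to 3.93, 2.68 and 3.40, a log2 difference of 4.70. The ratio of DCK to NT5C2 reads, kinase against nucleotidase, was 1.23, 1.03 and 1.27 with DMSO and 2.88, 2.64 and 2.45 with THZ1, a log2 difference of 1.18. The ratio of HPRT1 to TPMT reads, activation against methylation, was 2.60, 2.07 and 2.53 with DMSO and 1.14, 1.20 and 1.04 with THZ1, a log2 difference of −1.09. None of the 6 ratios overlapped between treatments. Each gave p = 0.1 in a two-sided exact permutation test, also after Benjamini-Hochberg adjustment over the 6 ratios, which is the smallest p that 3 libraries against 3 allow, so none could pass 0.05.

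**Figure D3:**
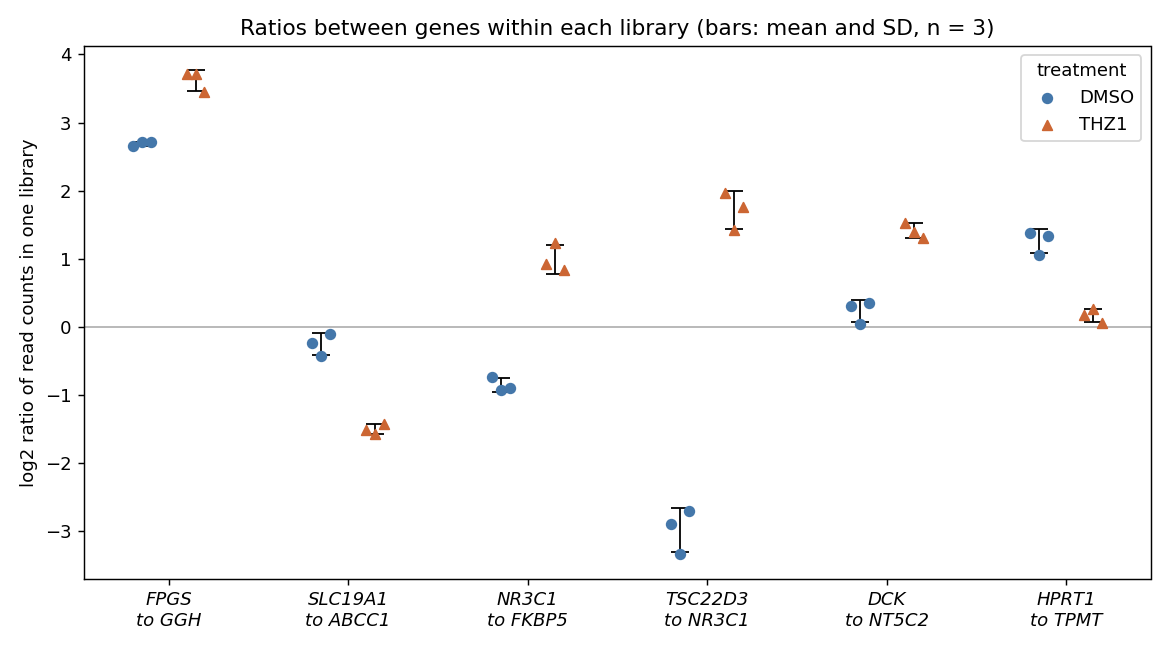
Log2 ratio of read counts between the genes of 6 pairs in each library, with 0.5 added to each count. DMSO-treated libraries are circles, THZ1-treated libraries are triangles, and bars give the mean and SD of 3 libraries. The ratio of TSC22D3 to NR3C1 moves from below 0 to above 0 by 4.70, and no pair overlaps between treatments.

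To compare levels between genes, the deposited FPKM values, which are per length of transcript, were used for the 8 genes they cover, while NT5C2 was not analysed on that scale. With DMSO, FPGS was highest at 132 ± 5.69 FPKM, followed by DCK at 101 ± 4.58 FPKM. FKBP5 at 36.6 ± 3.68 FPKM and TPMT at 35.1 ± 3.18 FPKM came next and overlapped between libraries, then GGH at 28.5 ± 2.47 FPKM. NR3C1 at 23.7 ± 1.80 FPKM and SLC19A1 at 22.8 ± 1.08 FPKM also overlapped, and TSC22D3 was lowest at 6.61 ± 0.982 FPKM (SD, n = 3 libraries). The order was thus led by the synthase and the kinase, with the receptor target TSC22D3 at its end. TSC22D3 has 18 annotated transcripts, and its values are for the gene as a whole.

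With THZ1, TSC22D3 was at the top of the order at 105 ± 13.7 FPKM, overlapping FPGS at 93.8 ± 5.40 FPKM. DCK followed at 44.3 ± 1.72 FPKM, and TPMT at 17.1 ± 0.645 FPKM and NR3C1 at 16.4 ± 1.53 FPKM overlapped. GGH at 10.1 ± 1.70 FPKM, SLC19A1 at 7.58 ± 0.489 FPKM and FKBP5 at 6.05 ± 0.538 FPKM were lowest and did not overlap. TSC22D3 and FKBP5 had therefore moved to opposite ends of the order. The sorted values of these deposited libraries were nearly the same within a treatment, differing by a median of 0.00150 to 0.00170 on the log2 scale, so the spread between libraries in FPKM may be understated.

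The direction of all 9 genes was the same under every alternative processing that was run, and the plot of log2 fold changes shows it for TMM scaling and 3 of the alternatives. TSC22D3 lay between 3.80 and 4.53, FKBP5 between −2.57 and −2.02 and NT5C2 between −2.50 and −2.06 over all alternatives. With each library left out in turn, TSC22D3 lay between 4.18 and 4.40, NR3C1 between −0.46 and −0.33 and FPGS between −0.41 and −0.29, and no call was lost.

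**Figure D4:**
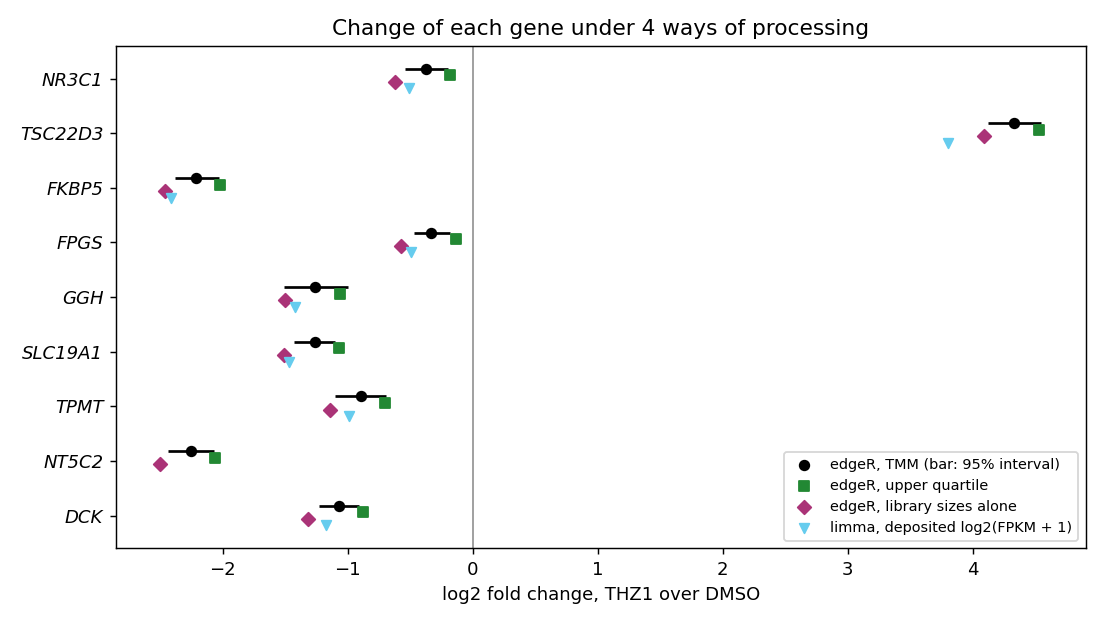
Log2 fold change of THZ1 over DMSO for each of the 9 genes by edgeR with TMM scaling (circles, with the 95% interval as a bar), upper quartile factors (squares) and library sizes alone (diamonds), and by limma on the deposited log2(FPKM + 1) values (triangles, for 8 genes). TSC22D3 lies right of 0 and the other genes left of it in all cases, and NR3C1 and FPGS come nearest to 0, at −0.18 and −0.13 with upper quartile factors.

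The genes whose pattern over the 6 libraries was most like that of each gene were found by the Euclidean distance of centred log2 CPM among 8972 protein-coding genes with a mean of at least 10 CPM. They were LY6G5C and TSSK6 for TSC22D3 (distances 0.186 and 0.299), LPXN and VEZT for NR3C1 (0.0807 and 0.0893) and WDR3 for FKBP5 (0.0714). For the antifolate genes they were HADHA and HEATR3 for SLC19A1 (0.0683 and 0.0787), FZR1 and PPFIA3 for FPGS (0.0499 and 0.0647) and ADAMTS15 and CSK for GGH (0.0998 and 0.118). For the others they were ZNF185 and ALKBH8 for TPMT (0.0842 and 0.0915), MCMBP and DGKD for NT5C2 (0.0440 and 0.0887) and ELAC2 and HMGN3 for DCK (0.0712 and 0.108). The distance of TSC22D3 to its nearest gene was the largest of the 9, and MCMBP, which is linked to the replicative helicase, was the nearest of all to its gene, with the same log2 fold change of −2.25. These distances describe 6 libraries that differ mainly by treatment.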

How the data were processed

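Libraries of NALM6 cells, 3 treated with DMSO and 3 with THZ1, were grouped by their labels. The authors filtered the reads, mapped them to GRCh37 with STAR, obtained raw counts per gene with htseq-count and calculated FPKM by RSEM. The deposited counts are not normalized, while the deposited FPKM values are on a log2 scale and were read as log2(FPKM + 1). The annotation and the strand setting are not given in the sources used here. Further genes named share exon bases with another gene on the same strand, among them ASNS (2415), IMPDH2 (1680) and TK2 (457). Their reads may have been lost or shared there. Others share exon bases with a gene on the opposite strand, among them MTHFD1 (1556), SAMHD1 (1068) and NT5C (875). Reads of these may be mixed or left out if strand was not used in the counting. The authors' fold change, p-value and FDR columns hold their own comparison and were not used.

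In edgeR 4.0.16, low genes were removed by filterByExpr (a count of at least 10 and a total of at least 15), factors were set by TMM, and the quasi-likelihood test was run. The alternatives were DESeq2 1.42.0, upper quartile or RLE factors, unscaled library sizes, other filters, a replicate block, the omission of each single library, and limma 3.58.1 on the FPKM values with a pseudocount of 1 or 0.1. Only the edgeR fit with TMM was tested on simulated counts, in which a small part of the genes changed. That run cannot check the scaling where most genes are called, as here. Symbols and positions came from GENCODE 44 lifted to GRCh37, and promoters from RefSeq. The genes named are the 9 genes, the highest and lowest tested gene of each list, every gene of lists of 5 or fewer, the genes of the ratios and the 2 nearest genes by distance. The 9 genes and the lists were chosen with earlier results of these data known. Some results are not reported here.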

Additional observations from a re-analysis of the deposited data

How the results depend on the processing

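The 9 genes kept their direction under all 16 alternatives (13 for NT5C2, which the FPKM values do not cover here), with 1 higher and 8 lower in all but the FPKM values, where 7 of 8 were lower, and upper quartile factors, where 6 of 9 were. Upper quartile factors shifted the median log2 fold change of all genes by 0.19 against TMM, library sizes alone by −0.25 and FPKM plus 1 by −0.26. With upper quartile factors NR3C1 (−0.18, adjusted p-value 0.0606) and FPGS (−0.13, adjusted p-value 0.0926 by edgeR's quasi-likelihood test) lost their calls. From the deposited FPKM plus 0.1, the log2 ratio of SLC19A1 to ABCC1 changed by −1.48 in place of −1.25 and that of NR3C1 to FKBP5 by 2.05 in place of 1.84, and the cause was not tested. Libraries of the same number did not deviate together over all genes (correlations −0.00400, 0.000969 and 0.0206). The labels do not say whether the numbers pair libraries, and these correlations cannot exclude it. With a replicate block 7181 genes were higher and 6786 lower in place of 7224 and 6826, and no call of the 9 genes changed.

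Some of the other drug genes were covered by fewer than 16 alternatives, among them HSP90AA1 and TYMS by 13 and ABCC2 by 12. Of 84 calls among the other drug genes, 76 held under every alternative that covered the gene. Those that did not included DNAJB1, CDC37, AHSA1, NCOA1, DUSP1, RRM2B and TUBB, and TUBB changed sign in FPKM (0.44 against −0.10 with 0.1 added). Low genes depended most on the table used, as NR3C2 (0.01 against −1.89), ERRFI1 (−0.56 against −2.29) and SLC46A1 (0.35 against −1.48) were called lower in FPKM plus 0.1. SLC46A1 was called higher, at 0.71, without DMSO replicate 2. Depth limits SGK1, SOCS1, MTHFS, FKBP4, ABCG2, ABCC2 and SAMHD1, which had at most 20 counts per library in one treatment.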

Other observations

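TSC22D3 belongs to a small family of leucine zipper proteins, and its other 3 genes were higher too. TSC22D2 rose from 268, 273 and 199 counts to 717, 750 and 725 counts, a change of 2.26 ± 0.10 on the log2 scale (standard error). TSC22D1 rose from 35.8 ± 1.93 to 83.6 ± 1.83 CPM (log2 fold change 1.22), and TSC22D4 from 158 ± 22.6 to 363 ± 5.97 CPM (log2 fold change 1.20) (SD, n = 3 libraries each). The adjusted p-values of the 3 genes were at most 1.5e-14 by edgeR's quasi-likelihood test.

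Of 6 genes that other leukemia drugs act on or through, 4 were lower and 1 was higher, with a median log2 fold change of −0.63. TOP2B, a topoisomerase that anthracyclines poison, was lowest and fell from 1060 ± 63.7 to 314 ± 21.0 CPM (log2 fold change −1.75). TUBB, a beta tubulin of the kind that vincristine binds, was highest at a log2 fold change of 0.44 and was −0.10 in the deposited FPKM values with 0.1 added. ASNS, asparagine synthetase, which is linked to the response to asparaginase, was chosen for mention after its values were seen and fell from 50.6 ± 4.25 to 36.0 ± 5.22 CPM (log2 fold change −0.49).

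Among the markers of B-cell precursors, CD79A, a chain of the B-cell receptor, was highest and rose from 129 ± 6.12 to 323 ± 11.9 CPM, whereas CD22, a B-cell surface lectin, was lowest and fell from 118 ± 5.83 to 20.0 ± 1.98 CPM. The log2 fold changes were 1.33 and −2.56, and CD22 is itself the target of an antibody drug for this leukemia. Of the 12 markers, 2 were higher, 9 lower and 1 was not called. The other higher marker, RAG1, a recombinase gene named after its values were seen, had a log2 fold change of 0.19 with overlapping libraries, lost its call in 10 of 16 alternatives and changed sign in 4 of them. Among the markers of other cells, LYZ was lowest at a log2 fold change of −0.83 and lost its call in 8 of 15 alternatives.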
